A study of Mus musculus with 15 samples.

Results

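The 35 genes described here encode the enzymes, transporters and regulators of glycolysis, lactate handling and glycogen turnover. They were chosen by name, and all 35 were found among the 56980 genes of an RNA sequencing table of dystrophic mouse muscle and heart, given as transcript abundance (TPM). The mice were DBA/2-mdx (DBA/2J-mdx in the labels), which carry no functional dystrophin, the protein lost in Duchenne muscular dystrophy. Both treated and control animals carried this genotype, and no wild-type library was used here. One set of mice received dasatinib and quercetin (D+Q), a kinase inhibitor and a flavonoid given together as a senolytic, or vehicle on 2 days per week for 2 months, and the tibialis anterior (TA), a fast hindlimb muscle, was collected at 5 months of age after a start at 3 months (4 D+Q and 4 vehicle mice). Another set started at 12 months of age, was treated for 4 months and gave hearts at 16 months of age (3 D+Q and 4 vehicle mice). Each of the 15 libraries came from 1 mouse, so tissue, age and length of treatment changed together and cannot be told apart in any comparison of TA with heart.

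Glycolysis splits glucose into pyruvate, and most of its steps are run by families of isozymes encoded by separate genes. Fast skeletal muscle is known for burning glycogen and glucose quickly and exporting the lactate that results, whereas the heart takes up lactate and oxidizes it. Glycogen is the glucose store of muscle, built by glycogen synthase and its branching enzyme and broken down by glycogen phosphorylase, which phosphorylase kinase switches on when calcium rises.

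Promoters of 4 genes are shown because their isozymes lay on opposite sides of the tissue comparison: Ldha and Pygm were higher in TA, and Pygb and Slc16a1 were higher in heart. The bases are the RefSeq sequence (GRCm38.p6) that ends at the transcription start, 5′ to 3′ on the strand of the gene, at chr7:46845554-46845803 (plus strand) for Ldha, chr19:6384158-6384407 (plus) for Pygm, chr2:150786546-150786715 (plus) for Pygb and chr3:104638414-104638494 (plus) for Slc16a1. The last 2 were shortened to the bases that precede the first GENCODE transcript. Ldha has a further RefSeq start downstream, whose promoter is not shown and held no ACGTG. Capitals mark ACGTG, the core letters of the hypoxia response element, read on both strands. CACGTG, which is also an E-box, holds the core on both strands at once.
Ldha: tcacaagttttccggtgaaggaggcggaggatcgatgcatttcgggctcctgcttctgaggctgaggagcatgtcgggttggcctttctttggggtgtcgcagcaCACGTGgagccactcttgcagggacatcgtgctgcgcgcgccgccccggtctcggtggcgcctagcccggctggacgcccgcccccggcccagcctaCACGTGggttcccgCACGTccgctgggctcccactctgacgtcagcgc
Pygm: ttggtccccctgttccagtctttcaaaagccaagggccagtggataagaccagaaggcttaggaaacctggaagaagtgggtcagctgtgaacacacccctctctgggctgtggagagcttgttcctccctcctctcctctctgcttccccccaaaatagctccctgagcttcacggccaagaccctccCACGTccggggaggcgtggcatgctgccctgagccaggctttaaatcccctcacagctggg
Pygb: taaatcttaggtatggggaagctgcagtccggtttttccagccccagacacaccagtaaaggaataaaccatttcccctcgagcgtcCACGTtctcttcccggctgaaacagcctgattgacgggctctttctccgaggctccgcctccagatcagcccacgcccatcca
Slc16a1: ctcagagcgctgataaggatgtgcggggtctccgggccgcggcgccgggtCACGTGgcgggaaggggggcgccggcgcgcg
RefSeq promoters were given for 34 of the 35 genes (all but Slc2a4). Over the 250 bases before each start, ACGTG was present in 20 of 52 member promoters (38.5%) and in 16.6% of the 32841 promoters of the table. Counted by gene, it was present in 16 of 34 members (47.1%) and in 18.5% of 27018 genes. The median GC content of the member promoters was 59.6%, beside 52.4% for all promoters. By tissue call, it was present in 11 of 23 genes higher in TA, 3 of 7 genes lower in TA and 2 of the 4 that were not called. The Ldhb promoter held none. Of the other letters searched on both strands, the E-box CANNTG was present in 67.3% of member promoters and 66.2% of all, TATAAA in 1.92% and 12.4%, the MEF3 motif TCAGGTT in 3.85% and 3.49%, and the MEF2 consensus in 3.85% and 2.92%.

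Levels are TPM, which are scaled to gene length and to a fixed total per library, so levels of different genes can be set side by side. The files hold no read counts and the depth of the libraries is unknown. The labelled tissues matched their markers: the summed TPM of 8 fast-fibre genes was 31200 to 38490 in the TA libraries and 1.59 to 2.42 in vehicle hearts, and that of 6 cardiomyocyte genes was 20770 to 27320 in hearts and 56.2 to 138 in TA. In heart D+Q replicate 2 the fast-fibre genes summed to 72.1 TPM. Heart D+Q replicate 3 was labelled male, but its Xist level was 47.2 TPM, so that library did not match its label. All D+Q TA mice were male, whereas vehicle TA mice and vehicle heart mice were 2 males and 2 females in each group, and the other D+Q heart mice were female. Genes of the mitochondrial genome took 22.8 to 29.1% of the TPM in TA and 26.2 to 30.02% in heart. Fewer cells of a type and less RNA per cell cannot be told apart in these bulk libraries.

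The 35 genes together made up 2.42% ± 0.38 (SD, n = 4) of all TPM in vehicle TA and 0.621% ± 0.027 (SD, n = 4) in vehicle heart. In D+Q mice the share was 2.63% ± 0.28 (SD, n = 4) in TA and 0.702% ± 0.012 (SD, n = 3) in heart. Aldoa, which splits fructose bisphosphate, was the most abundant member in both tissues and took 37.4% ± 2.5 (SD, n = 4) of the members' TPM in vehicle TA against 21.4% ± 0.43 (SD, n = 4) in vehicle heart. In vehicle TA the order continued with Gapdh, Eno3, Pygm, Pkm and Pgam2, of which the last 4 overlapped with their neighbours in the order. In vehicle heart Ldhb came next after Aldoa and Gapdh at 713 TPM ± 29.5 (SD, n = 4) and overlapped with neither neighbour in the order. At the low end, Aldoc lay between 0.0597 and 0.571 TPM in all 15 libraries.

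**Figure D1:**
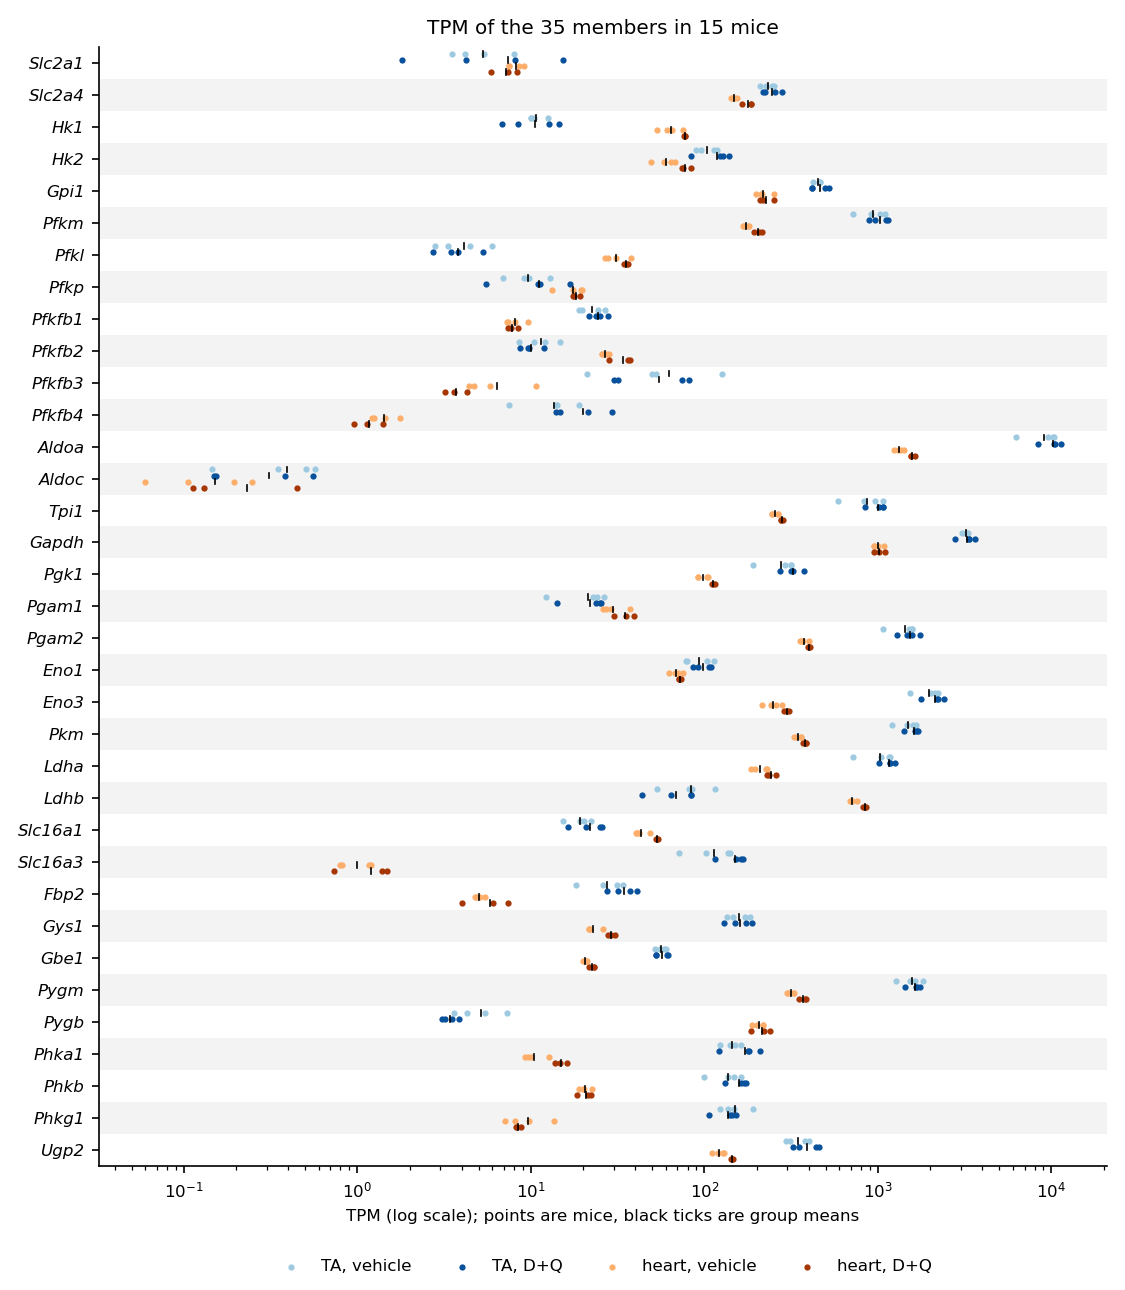
TPM (log scale) of the 35 members, 1 point per mouse in the 4 groups, with black ticks at group means. Most members sit to the right in TA, while Hk1, Pfkl, Pfkfb2, Ldhb, Slc16a1 and Pygb sit to the right in heart.

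Vehicle TA and vehicle heart were compared first, to ask which isozymes each dystrophic tissue used. Of the 35 members, 24 were higher and 7 were lower in TA (limma on log2(TPM + 0.5), Benjamini-Hochberg adjusted p under 0.05 over 17868 genes and a log2 fold change beyond 0.5). Over all genes tested, 22.6% were higher and 14.1% lower by the same rule. The members' median log2 fold change was 1.5, beside 0.16 for all genes. The 7 genes lower in TA were Pygb, Ldhb, Pfkl, Hk1, Pfkfb2, Slc16a1 and Pfkp, each of which has a partner isozyme that was higher in TA. Rescaling the libraries by median of ratios moved the median of all genes to −0.0003, and the calls over all genes from 4038 higher and 2518 lower to 2926 higher and 3288 lower. With it, 23 members were higher and 8 lower, and the members' median was 1.31.

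The comparison was repeated in the D+Q mice, which are other animals. All TA mice in it were male by label, and the hearts were female by label or, for replicate 3, by its Xist level. Sex thus changed with tissue in this comparison and cannot be told apart from it. There, 23 members were higher and 8 lower in TA, where 21.4% of all genes were higher and 15.9% lower. The members' median log2 fold change was 1.59, beside 0.09 for all genes. Without heart D+Q replicate 3, whose sex label did not match, 23 were higher and 6 lower. Over all 17780 genes of that fit, 3252 were higher and 2743 lower. Pgam1 was called lower in TA in the D+Q mice, with a log2 fold change of −0.68 (SE 0.25, adjusted p = 0.0358), beside −0.51 (SE 0.23, adjusted p = 0.0821) in vehicle mice. The Pgam1 call was lost without a filter (adjusted p = 0.0725), with the replicate block (0.0831), with labelled sex (0.0589), and without TA D+Q replicate 3 (0.0967), heart D+Q replicate 2 (0.12) or heart D+Q replicate 3 (0.0851), all in limma. Pfkp, also lower in TA in the D+Q mice, lost its call in 7 of 17 alternatives (limma, adjusted p up to 0.0901). Labelled sex (0.0631) and leaving out any 1 of the D+Q hearts were among them. Slc2a4 was called in vehicle mice but not in D+Q mice, with 0.66 (SE 0.09) there and 0.44 (SE 0.10) under D+Q. Those differences between the comparisons did not pass the test of treatment by tissue given below, which held no covariate for sex. Median-of-ratios scaling moved the calls over all genes from 3824 higher and 2847 lower to 3278 and 3465, and TPM recomputed over nuclear genes moved them to 3330 and 3342.

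**Figure D2:**
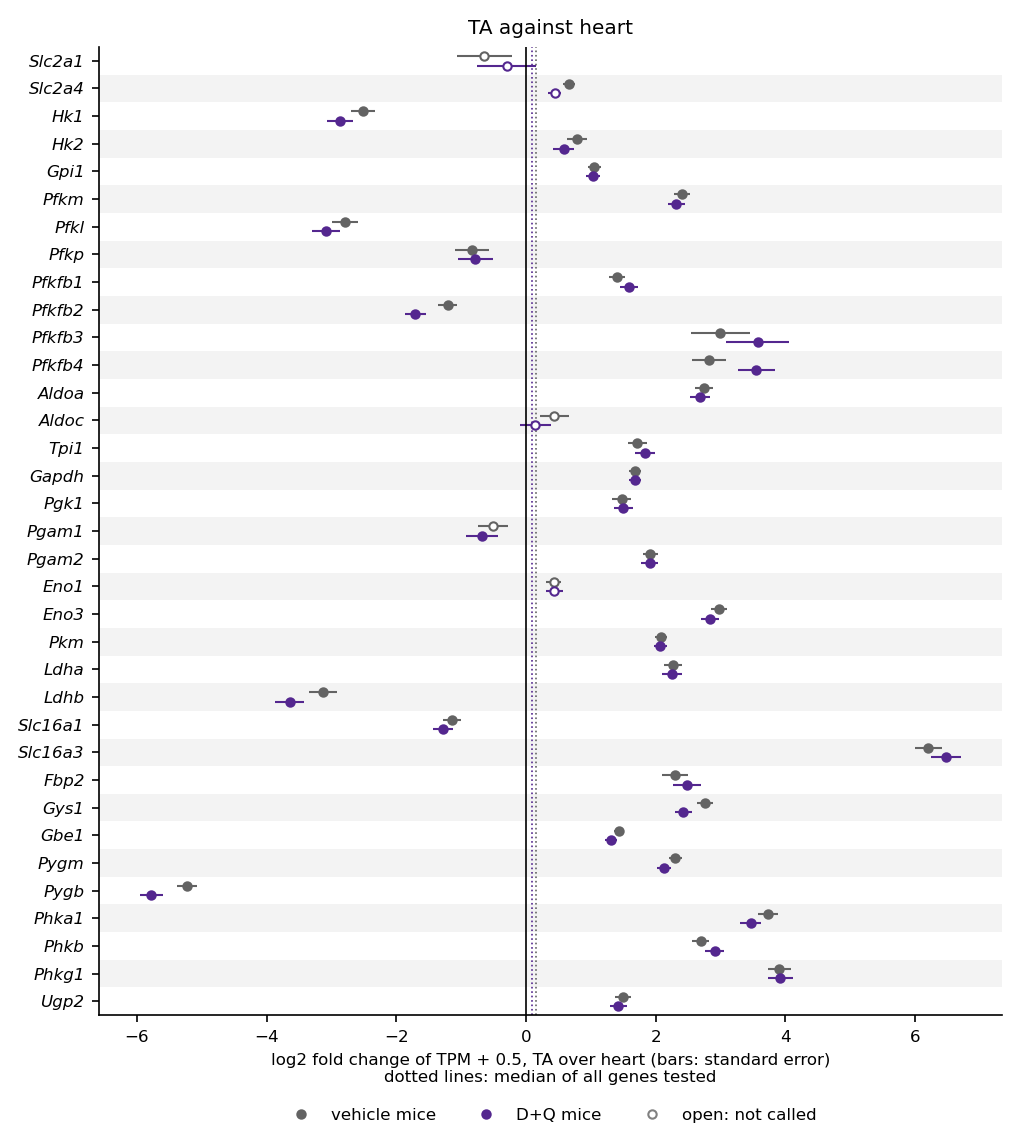
Log2 fold change (TPM + 0.5) of each member in TA over heart with its standard error, in vehicle mice (grey) and D+Q mice (purple), where open points were not called and dotted lines mark the median of all genes tested. Slc16a3 lies farthest to the right at 6.21 and 6.48 and Pygb farthest to the left at −5.23 and −5.78.

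The lactate genes gave the largest differences in isozyme share between the tissues. Slc16a3 encodes MCT4, which exports lactate from glycolytic fibres. It was at 140.7, 101.7, 137.7 and 71.7 TPM in the 4 vehicle TA and at 0.812, 1.17, 0.796 and 1.20 TPM in the 4 vehicle hearts. The D+Q mice gave 115.6, 151.5, 163.3 and 167.3 TPM in TA and 1.39, 1.48 and 0.733 TPM in heart. The lowest TA was far above the highest heart in both arms, and the log2 fold change was 6.21 (SE 0.21, adjusted p = 2.82e-12) in vehicle mice and 6.48 (SE 0.23, adjusted p = 4.67e-12) under D+Q. In heart the gene lay close to the filter of 0.5 TPM, where the added 0.5 lowers the fold.

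Slc16a1 encodes MCT1, the carrier through which oxidative cells take lactate up. It was at 20.3, 19.3, 22.2 and 15.4 TPM in vehicle TA, 25.9, 20.8, 16.3 and 24.9 TPM in D+Q TA, 41.9, 40.4, 48.4 and 41.1 TPM in vehicle heart and 53.9, 53.2 and 52.6 TPM in D+Q heart. Every heart was above every TA. The log2 fold change was −1.14 (SE 0.14) in vehicle mice and −1.28 (SE 0.15) in D+Q mice.

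Lactate dehydrogenase is a tetramer of the Ldha subunit, favoured where pyruvate is reduced to lactate, and the Ldhb subunit, favoured where lactate is oxidized. Ldha was at 1161, 1036, 1180 and 715.9 TPM in vehicle TA, 1010, 1169, 1178 and 1260 TPM in D+Q TA, 184.7, 227.6, 229.6 and 196.4 TPM in vehicle heart and 237.1, 259.0 and 230.0 TPM in D+Q heart. TA vehicle replicate 4 was the lowest TA, yet it was above every heart. Ldhb ran the other way, with 82.0, 115.5, 53.3 and 84.7 TPM in vehicle TA and 84.2, 84.1, 43.7 and 64.0 TPM in D+Q TA. In heart it was at 696.6, 691.1, 756.0 and 708.8 TPM with vehicle and at 848.5, 825.8 and 853.6 TPM with D+Q. The log2 fold changes were 2.26 (SE 0.14) for Ldha and −3.13 (SE 0.21) for Ldhb in vehicle mice, and 2.25 (SE 0.15) and −3.65 (SE 0.23) in D+Q mice.

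As a share of the summed TPM of each pair, Ldha was 92.1% ± 3.0 (SD, n = 4) in vehicle TA and 22.7% ± 1.7 (SD, n = 4) in vehicle heart, and Slc16a3 was 85.0% ± 2.2 (SD, n = 4) and 2.29% ± 0.62 (SD, n = 4). Such a share does not move with the scaling of a library. Both shares separated the tissues completely (exact permutation test over mice, two-sided, p = 0.0286, the smallest that 70 splits allow, and adjusted p = 0.0317 over 10 shares). Under D+Q the Ldha share was 94.3% ± 1.8 (SD, n = 4) and 22.3% ± 1.4 (SD, n = 3), and the Slc16a3 share was 86.9% ± 3.8 (SD, n = 4) and 2.20% ± 0.72 (SD, n = 3), with the same exact p over 35 splits.

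**Figure D3:**
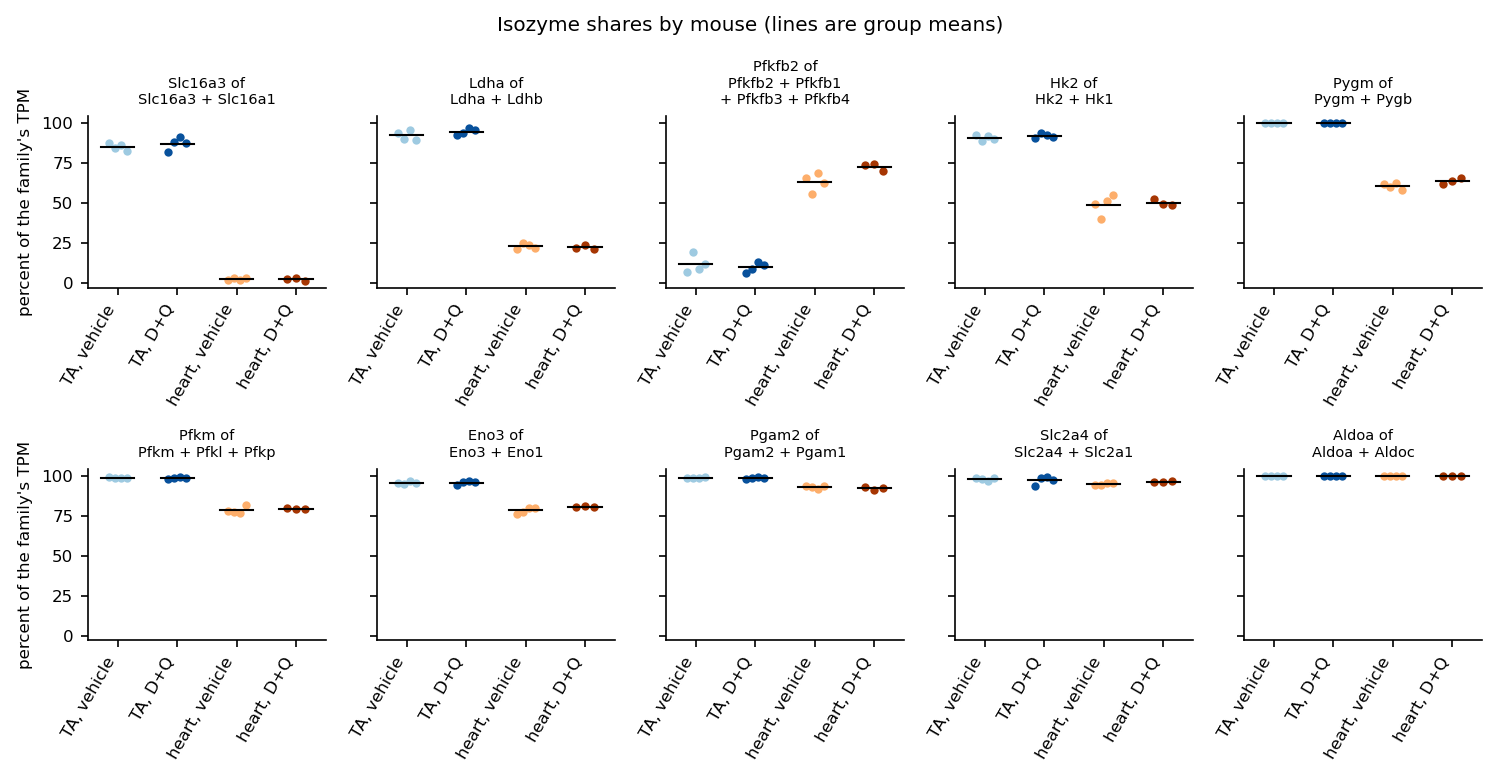
Share of one isozyme in the summed TPM of its family (percent), 1 point per mouse, for the 10 families in the 4 groups, with lines at group means. TA and heart are apart for 9 families in vehicle mice, from Slc16a3 (85.0 against 2.29%) to Slc2a4 (97.8 against 94.8%), while Aldoa takes nearly all of its family in every mouse.

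Glucose enters muscle through Slc2a4 (GLUT4), which insulin and contraction bring to the surface, and through Slc2a1 (GLUT1), which supplies basal uptake. Slc2a4 was at 234 TPM ± 19.8 (SD, n = 4) in vehicle TA and 148 ± 4.7 (SD, n = 4) in vehicle heart. Median-of-ratios scaling left that log2 fold change at 0.47, under the limit of 0.5. Slc2a1 was at 5.27 TPM ± 1.98 and 8.17 ± 0.81 (SD, n = 4 each) and was not called in either arm. GLUT4 made up 97.8% ± 0.84 of the pair's TPM in vehicle TA and 94.8% ± 0.57 in vehicle heart (SD, n = 4 each, exact permutation p = 0.0286). Under D+Q the shares were 97.0% ± 2.6 (SD, n = 4) and 96.1% ± 0.45 (SD, n = 3) and overlapped (exact permutation p = 0.571).

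Hexokinase traps glucose as glucose 6-phosphate. Hk2, the insulin-responsive form of muscle, was at 118.4, 96.0, 113.6 and 89.0 TPM in vehicle TA, 139.4, 123.2, 83.5 and 127.8 TPM in D+Q TA, 58.8, 49.5, 67.9 and 64.3 TPM in vehicle heart and 84.2, 75.0 and 73.9 TPM in D+Q heart. TA D+Q replicate 3 fell just below the highest D+Q heart. Hk1, the form most tissues share, was at 9.99, 12.5, 10.03 and 10.4 TPM in vehicle TA and 14.6, 8.45, 6.84 and 12.7 TPM in D+Q TA. In heart Hk1 was at 61.2, 75.5, 65.3 and 53.6 TPM with vehicle and at 76.4, 77.9 and 77.6 TPM with D+Q, far above every TA. The log2 fold changes in vehicle mice were 0.79 (SE 0.15) for Hk2 and −2.51 (SE 0.18) for Hk1. In D+Q mice they were 0.58 (SE 0.16) and −2.86 (SE 0.20). The first was 0.47 with median-of-ratios scaling, 0.49 with TPM over nuclear genes, 0.498 with labelled sex and 0.496 without TA D+Q replicate 1. Each of these is under the limit of 0.5, so the Hk2 call was lost there. Hk2 was thus 90.5% ± 1.8 (SD, n = 4) of the pair in vehicle TA and 48.5% ± 6.4 (SD, n = 4) in vehicle heart (exact permutation p = 0.0286).

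Phosphofructokinase is the committed step of glycolysis, and its subunits are named for muscle (Pfkm), liver (Pfkl) and platelet (Pfkp). Pfkm was at 937 TPM ± 163 (SD, n = 4) in vehicle TA and 174 ± 7.2 (SD, n = 4) in vehicle heart, a log2 fold change of 2.41 (SE 0.12). Pfkl was at 4.14 TPM ± 1.40 and 30.9 ± 5.0, and Pfkp at 9.68 ± 2.45 and 17.5 ± 3.0 (SD, n = 4 each). Their log2 fold changes were −2.79 (SE 0.20) and −0.83 (SE 0.26). The muscle subunit was 98.5% ± 0.19 of the family in vehicle TA and 78.3% ± 2.4 in vehicle heart (SD, n = 4 each, exact permutation p = 0.0286), and under D+Q 98.6% ± 0.57 (SD, n = 4) and 79.2% ± 0.62 (SD, n = 3). Upstream of it, Gpi1, which converts glucose 6-phosphate to fructose 6-phosphate, was at 453 TPM ± 19.9 and 219 ± 23.3 (SD, n = 4 each) with a log2 fold change of 1.05 (SE 0.10).

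The bifunctional enzymes Pfkfb1 to Pfkfb4 make and degrade fructose 2,6-bisphosphate, the activator of phosphofructokinase. Pfkfb2, known as the heart form, was at 12.1, 14.7, 8.58 and 10.5 TPM in vehicle TA, 8.64, 11.8, 9.67 and 9.76 TPM in D+Q TA, 25.6, 25.6, 28.4 and 27.2 TPM in vehicle heart and 37.1, 36.1 and 28.1 TPM in D+Q heart. It was the only one of the 4 that was higher in heart. Pfkfb3, which favours synthesis, was at 126.3, 21.0, 49.7 and 52.8 TPM in vehicle TA and 74.5, 81.5, 30.1 and 31.7 TPM in D+Q TA. In vehicle heart it was at 4.73, 10.6, 4.39 and 5.83 TPM and in D+Q heart at 3.61, 4.28 and 3.20 TPM. Among vehicle TA mice Pfkfb3 spanned 6.02-fold, the widest range of any member there. In D+Q TA the widest was that of Slc2a1, at 8.39-fold.

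Pfkfb1, the form of liver and muscle, was at 24.5, 26.7, 19.7 and 18.9 TPM in vehicle TA and 25.1, 27.7, 21.6 and 23.7 TPM in D+Q TA. Its heart values were 7.31, 8.07, 7.43 and 9.63 TPM with vehicle and 8.40, 7.34 and 7.70 TPM with D+Q. Pfkfb4 was at 14.0, 14.2, 18.98 and 7.45 TPM in vehicle TA and 29.5, 14.8, 14.0 and 21.3 TPM in D+Q TA. Its heart values were 1.44, 1.76, 1.25 and 1.21 TPM with vehicle and 1.41, 0.962 and 1.14 TPM with D+Q. None of the 4 genes overlapped between the tissues. The log2 fold changes in vehicle mice were 1.41 (SE 0.13), −1.21 (SE 0.15), 3.00 (SE 0.45) and 2.82 (SE 0.26) for Pfkfb1 to Pfkfb4. In D+Q mice they were 1.59 (SE 0.14), −1.71 (SE 0.16), 3.57 (SE 0.49) and 3.56 (SE 0.28). Pfkfb2 made up 11.6% ± 5.4 of the family in vehicle TA and 62.9% ± 5.6 in vehicle heart (SD, n = 4 each, exact permutation p = 0.0286). Fbp2, the muscle fructose bisphosphatase that works against phosphofructokinase, was at 27.4 TPM ± 6.9 and 5.04 ± 0.30 (SD, n = 4 each), a log2 fold change of 2.30 (SE 0.20).

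Of the 10 genes from aldolase to pyruvate kinase, 7 were higher in TA, 3 were not called and none was lower in vehicle mice. Aldoa was at 9090 TPM ± 1918 in vehicle TA and 1330 ± 75.5 in vehicle heart, Gapdh, which oxidizes glyceraldehyde 3-phosphate, at 3206 ± 105 and 998 ± 66.5, and Pkm, the last enzyme, which forms pyruvate, at 1485 ± 198 and 348 ± 16.1 (SD, n = 4 each). The log2 fold changes in vehicle mice were 2.75 (SE 0.14) for Aldoa, 1.72 (SE 0.14) for the triose isomerase Tpi1, 1.69 (SE 0.09) for Gapdh, 1.48 (SE 0.14) for Pgk1, which makes the first ATP, and 2.09 (SE 0.10) for Pkm. Between them, the muscle forms of phosphoglycerate mutase (Pgam2) and enolase (Eno3) had 1.92 (SE 0.12) and 2.98 (SE 0.13). Their D+Q values lay between 1.504 (Pgk1) and 2.84 (Eno3). The widely expressed partners differed less: Eno1 was at 93.6 TPM ± 17.3 and 68.9 ± 5.3, Pgam1 at 21.4 ± 6.2 and 29.8 ± 5.2 (SD, n = 4 each), and neither was called in vehicle mice.

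The muscle form was the larger part in both tissues. Eno3 was 95.4% ± 0.75 of enolase TPM in vehicle TA and 78.2% ± 1.8 in vehicle heart, and Pgam2 was 98.6% ± 0.22 and 92.6% ± 0.83 (SD, n = 4 each, exact permutation p = 0.0286 for both). Aldoa was at least 99.97% of its pair with Aldoc in every mouse, and its share did not pass the test in vehicle mice (exact permutation p = 0.0857). It passed there without heart vehicle replicate 4, as a log2 ratio and with further paralogues in the family, and it passed in D+Q mice (exact permutation p = 0.0286), where the difference was 0.0116 percentage points. Near-identical copies can share reads with their parents in this counting: Eno1b was at 16.0 to 32.4 TPM and Aldoart1 at 1.38 to 13.5 TPM over the 15 libraries, so the values of Eno1 and Aldoa are uncertain. With Eno1b counted in the family, the enolase share still passed the test.

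All but 1 of the 8 glycogen genes were higher in TA. Gys1, the muscle glycogen synthase, was at 159 TPM ± 22.1 in vehicle TA and 22.8 ± 2.2 in vehicle heart, the branching enzyme Gbe1 at 56.4 ± 3.7 and 20.6 ± 0.48, and Ugp2, which makes the UDP-glucose they use, at 348 ± 51.0 and 122 ± 8.8 (SD, n = 4 each). The log2 fold changes were 2.77 (SE 0.12), 1.43 (SE 0.08) and 1.501 (SE 0.12). The subunits of phosphorylase kinase had 3.73 (SE 0.15) for Phka1, the muscle regulatory alpha subunit, 2.69 (SE 0.14) for Phkb, the beta subunit, and 3.91 (SE 0.18) for Phkg1, the muscle catalytic subunit. Phkg1 was at 150 TPM ± 29.1 in vehicle TA and 9.66 ± 2.86 in vehicle heart (SD, n = 4 each). In D+Q mice the 3 kinase values were 3.46 (SE 0.16), 2.91 (SE 0.15) and 3.92 (SE 0.19).

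The isozymes of glycogen phosphorylase lay on opposite sides. Pygm, the muscle form, was at 1569 TPM ± 231 (SD, n = 4) in vehicle TA and 315 ± 14.8 (SD, n = 4) in vehicle heart, a log2 fold change of 2.31 (SE 0.10). Pygb, the brain form, was at 5.15 TPM ± 1.60 (SD, n = 4) and 206 ± 13.8 (SD, n = 4), a log2 fold change of −5.23 (SE 0.16, adjusted p = 6.83e-13). Pygm was 99.7% ± 0.078 of the pair in vehicle TA and 60.5% ± 1.9 in vehicle heart (SD, n = 4 each, exact permutation p = 0.0286), and under D+Q 99.8% ± 0.025 (SD, n = 4) and 63.4% ± 2.1 (SD, n = 3). Pygb was the member with the largest fold in favour of heart in both arms.

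The heart values came with some markers of other tissue. The summed TPM of 5 atrial genes was 864 to 4260 in vehicle hearts and 382 to 427 in D+Q hearts, and that of 5 red-cell genes was 346 to 1231 and 26.8 to 122. In D+Q hearts nearly all of the atrial sum was Nppa, at 373.3, 417.9 and 421.4 TPM. Myl4 was at 3.96, 4.62 and 2.05 TPM there and Sln at 0.416, 0.176 and 0.0408 TPM. In TA, 6 leukocyte genes summed to 268 to 681 TPM and in heart to 113 to 236 TPM. Their part in the comparison of TA with heart was not tested.

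Other genes of these pathways, taken from lists of 22 further glycolysis and lactate genes and 19 further glycogen genes, were read against the 22.6% of all genes higher and 14.1% lower in vehicle TA. Of 17 glycolysis and lactate genes tested in vehicle mice, 8 were higher and 4 lower in TA. Gpd1 and Gpd2, the cytosolic and mitochondrial enzymes of the glycerol phosphate shuttle, had log2 fold changes of 3.56 (SE 0.17) and 3.40 (SE 0.11), with 153 and 52.5 TPM in vehicle TA. Mdh1, of the malate shuttle, had −1.07 (SE 0.10), and Bsg, the chaperone of both lactate carriers, had −0.83 (SE 0.10). Of 18 glycogen genes, 10 were higher and 5 lower in TA. Stbd1, a glycogen-binding protein, had 2.94 (SE 0.19). The phosphatase subunits that target glycogen ran in opposite directions, with 1.87 (SE 0.12) for the muscle form Ppp1r3a and −2.86 (SE 0.13) for the liver form Ppp1r3b. In D+Q mice 7 of the 17 were higher and 5 lower, and 8 of the 18 were higher and 5 lower, where 21.4% of all genes were higher and 15.9% lower.

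D+Q and vehicle mice were then compared within TA, with a surrogate variable fitted alongside treatment as in the study. The study's own test ran on read counts and reported genes changed in both directions in TA and in heart. Here limma on TPM took its place, so the numbers of calls cannot be set beside those of the study. No member was called among 16298 genes (limma, lowest adjusted p = 0.999), and 0% of all genes were called. At an unadjusted p under 0.05, 0 of the 35 members were higher and 0 lower, where 0.638% of all genes were higher and 2.36% lower. No member had groups that did not overlap, beside 0.264% of all genes with every D+Q mouse higher and 1.25% with every D+Q mouse lower. The median log2 fold change of the members was 0.06, with 24 positive and 11 negative, beside −0.07 for all genes, and it was −0.0046 with labelled sex in place of the surrogate variable and in males alone.

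The 3 members with the smallest unadjusted p in TA were Pygb, Slc16a3 and Phka1. Pygb was at 5.48, 7.24, 4.27 and 3.60 TPM in vehicle TA and 3.20, 3.06, 3.52 and 3.87 TPM in D+Q TA. Phka1 was at 150.4, 140.0, 163.4 and 123.5 TPM in vehicle TA and 121.1, 180.1, 210.5 and 177.7 TPM in D+Q TA. For both, as for the Slc16a3 values above, the groups overlapped. The log2 fold changes were −0.48 (SE 0.22) for Pygb, 0.44 (SE 0.23) for Slc16a3 and 0.30 (SE 0.16) for Phka1, followed by 0.31 (SE 0.18) for Pfkfb4, 0.36 (SE 0.21) for Fbp2 and 0.25 (SE 0.17) for Phkb. TA vehicle replicate 4 had the lowest value of its group for 27 of the 35 members, and the mitochondrial genome took 29.1% of its TPM, the highest of the 8 TA. Single mice and sex moved the values: the log2 fold change of Slc16a3 was 0.05 without TA D+Q replicate 3, 0.62 without TA vehicle replicate 3 and 0.09 with labelled sex, and that of Phkb was −0.02 without TA D+Q replicate 3. At an unadjusted p under 0.05, 4 members were higher without TA D+Q replicate 1 (0.97% of all genes), 3 without TA vehicle replicate 3 (1.08%) and 1 without TA vehicle replicate 1 (1.08%). In the same count, 1 member was lower without TA D+Q replicate 3 (0.936% of all genes), TA vehicle replicate 3 (6.28%) or TA vehicle replicate 4 (2.68%).

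**Figure D4:**
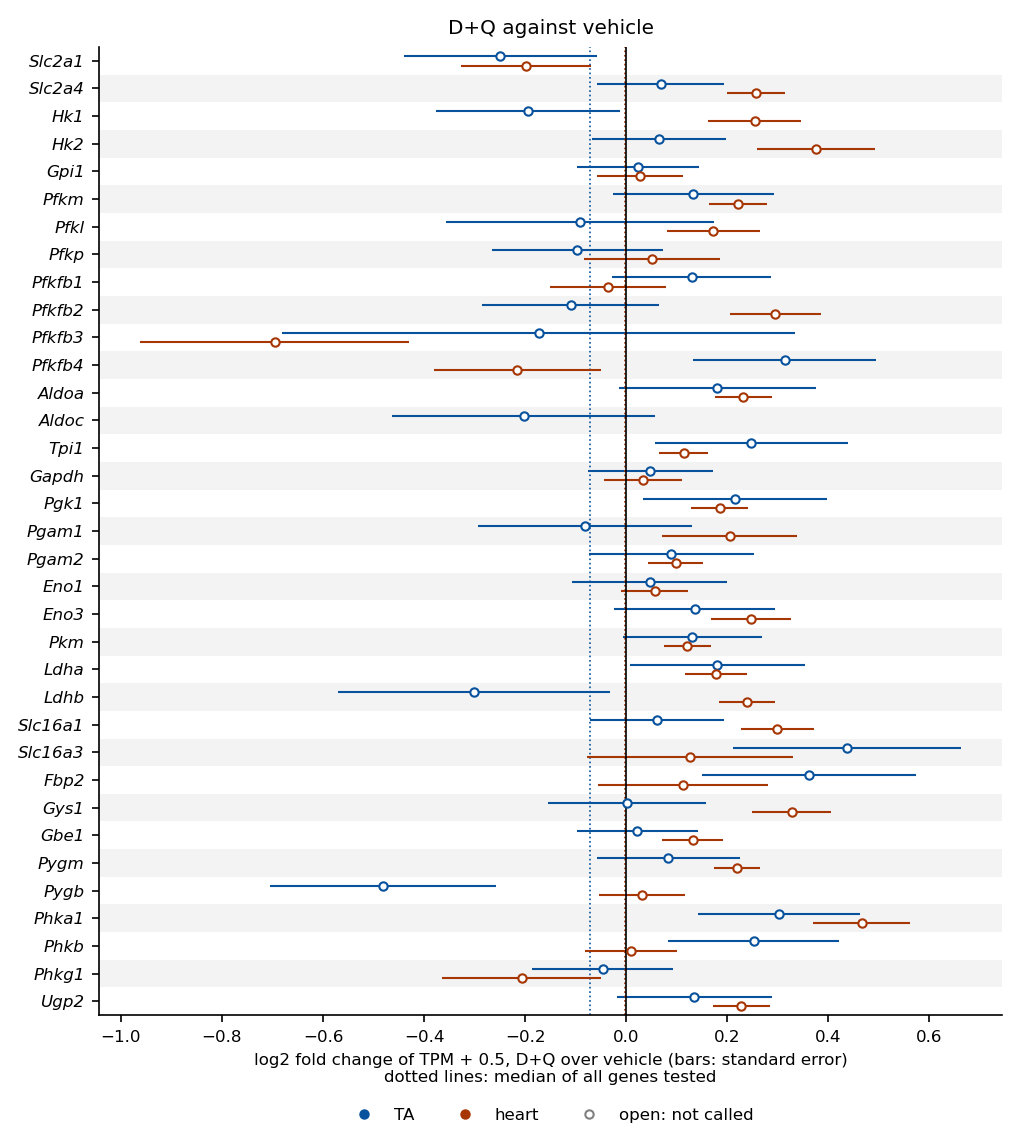
Log2 fold change (TPM + 0.5) of each member in D+Q over vehicle mice with its standard error, in TA (blue) and heart (brown), all open since none was called, with dotted lines at the median of all genes tested. Heart values of most members lie between 0 and 0.47 with short bars, whereas TA values scatter around 0 with longer bars.

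In heart the members leaned toward higher levels with D+Q, but no single member passed the adjusted test. Of 34 members tested (all but Aldoc) among 16132 genes, none was called, and 0.316% of all genes were (limma with labelled sex, lowest adjusted p of a member = 0.098). At an unadjusted p under 0.05, 17 members were higher and 1 lower, where 9.65% of all genes were higher and 7.99% lower. In the same count of genes whose groups did not overlap, 17 members had every D+Q heart above every vehicle heart (9.63% of all genes) and 1 had every D+Q heart below (5.57% of all genes). The median log2 fold change was 0.15, with 29 positive and 5 negative, beside 0.00 for all genes. The single lower gene was Pfkfb3, at −0.70 (SE 0.27, limma, adjusted p = 0.241). It was no longer in this count without heart vehicle replicate 2 or 4 or without heart D+Q replicate 1 or 2.

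Pygm had the smallest p. It was at 302.6, 323.5, 330.6 and 301.3 TPM in vehicle hearts and 379.0, 383.2 and 351.4 TPM in D+Q hearts. Phka1 was at 9.59, 10.1, 12.7 and 9.28 TPM in vehicle hearts and 14.8, 16.1 and 13.7 TPM in D+Q hearts. Slc2a4 was at 148.9, 142.8, 153.9 and 146.2 TPM in vehicle hearts and 185.7, 184.5 and 165.3 TPM in D+Q hearts. For each of these genes the groups did not overlap, with D+Q on the higher side. The log2 fold changes were 0.22 (SE 0.045) for Pygm, 0.47 (SE 0.096) for Phka1 and 0.26 (SE 0.057) for Slc2a4, with adjusted p between 0.098 and 0.109. Next came Ldhb with 0.24 (SE 0.056), Gys1 with 0.33 (SE 0.077) and Slc16a1 with 0.30 (SE 0.073). Without heart vehicle replicate 3, Phka1 passed the test with a log2 fold change of 0.56 (adjusted p = 0.0471), the only member that any alternative called in heart.

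By role, the 17 members higher at an unadjusted p under 0.05 were Slc2a4, both hexokinases, Pfkm, Pfkfb2, 5 enzymes from aldolase to pyruvate kinase (Aldoa, Tpi1, Pgk1, Eno3 and Pkm), Ldha, Ldhb, Slc16a1, and the glycogen genes Gys1, Pygm, Phka1 and Ugp2. Their log2 fold changes ran from 0.11 for Tpi1 to 0.47 for Phka1. Gapdh at 0.03 (SE 0.077), Gpi1 at 0.03 (SE 0.085), Pygb at 0.03 (SE 0.085) and Phkb at 0.01 (SE 0.091) lay near 0.

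Markers of cell types, cardiomyocytes among them, differed between the same groups. The sums of the atrial and of the red-cell genes were lower with D+Q and did not overlap between the groups, with Myl7, an atrial myosin light chain, at 94.1 to 730 TPM in vehicle and 3.46 to 4.54 TPM in D+Q hearts. The 6 cardiomyocyte genes summed to 20770 to 22790 TPM in vehicle and 25800 to 27320 TPM in D+Q hearts, and 5 of the 6 were higher at an unadjusted p under 0.05. The median log2 fold change of these 6 genes was 0.27, beside 0.15 for the members. The part of all these markers in the members' values was not tested beyond the following fits. With the atrial genes as a covariate 7 members were higher and 0 lower (5.11% and 0.515% of all genes in that fit), and the median of all genes then moved to 0.31 and that of the members to 0.44. With sex read from expression in place of the label, 11 were higher and 2 lower (4.98% and 8.47% of all genes), and without the mislabelled heart D+Q replicate 3, 12 were higher and 1 lower (5.84% and 6.15% of all genes). Without heart D+Q replicate 2, which held the fast-fibre RNA, 14 were higher and 0 lower (8.53% and 7.35% of all genes).

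**Figure D5:**
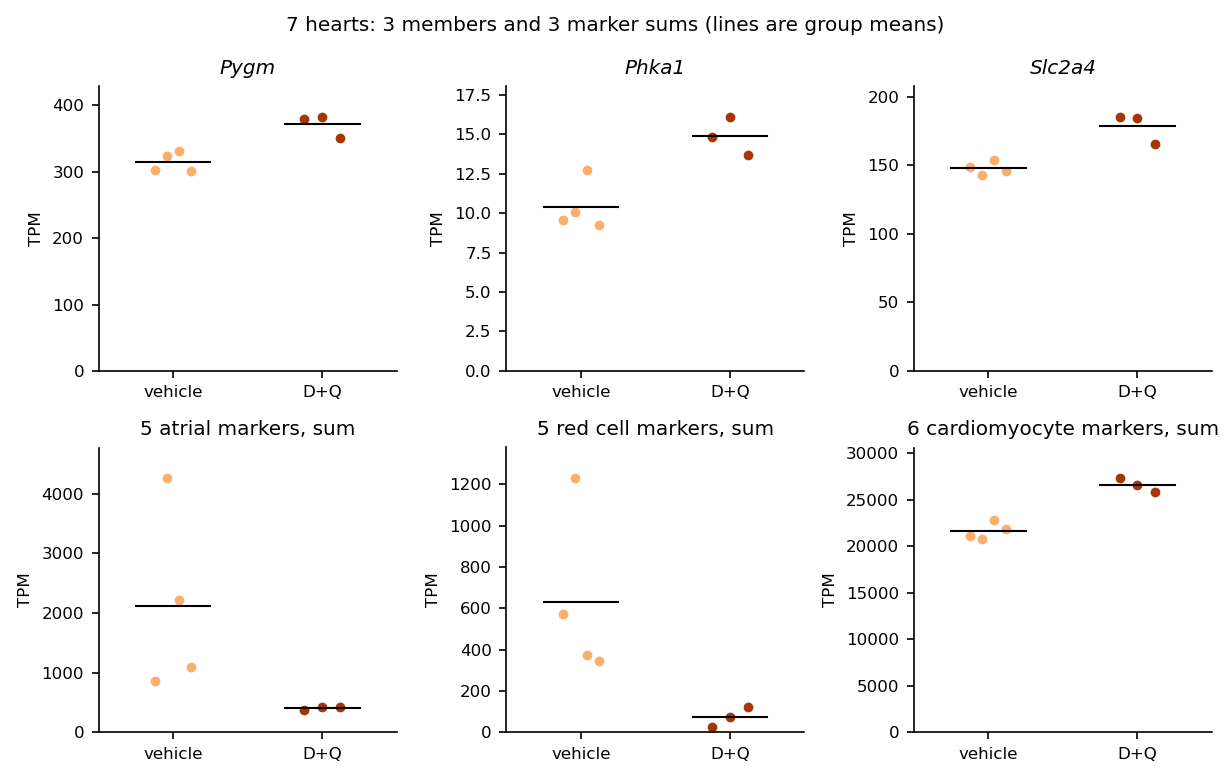
TPM of Pygm, Phka1 and Slc2a4 (upper row) and the summed TPM of atrial, red-cell and cardiomyocyte markers (lower row), 1 point per heart for 4 vehicle and 3 D+Q mice, with lines at group means. In all 6 panels the groups do not overlap: the 3 members and the cardiomyocyte sum are higher, and the atrial and red-cell sums lower, in D+Q hearts.

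Isozyme use did not pass the test between D+Q and vehicle within either tissue (exact permutation tests, lowest adjusted p = 0.286 in both). The smallest p this test allows is 0.0286 in both tissues. Adjusted over 10 shares, a single share at that p reaches only 0.286, so the test could not pass 1 family that changed alone. The nearest in heart was Pfkfb2, with 72.5% ± 2.2 (SD, n = 3) of its family under D+Q and 62.9% ± 5.6 (SD, n = 4) under vehicle, with no overlap (exact permutation p = 0.0571). The Slc2a4 share was 96.1% ± 0.45 (SD, n = 3) and 94.8% ± 0.57 (SD, n = 4), also without overlap and with the same p. In TA the Pygm share was 99.8% under D+Q and 99.7% under vehicle, without overlap, a difference of 0.115 percentage points. Its exact permutation p of 0.0286 was the smallest possible.

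The difference between the 2 treatment effects was tested itself, in 1 fit of all 15 mice. That fit held no covariate, unlike the fits within each tissue, so its effects are not those given above. All D+Q TA mice were male and all D+Q hearts female by label or Xist level, while both vehicle groups were mixed. Sex thus cannot be told apart from this difference. No member was called, and 0.0616% of all 17868 genes were (limma, lowest adjusted p of a member = 0.879). At an unadjusted p under 0.05, 0 members had a higher and 2 a lower effect in TA than in heart: Pygb at −0.55 (SE 0.24) and Pfkfb2 at −0.50 (SE 0.22) on the log2 scale. Pfkfb4 at 0.73 (SE 0.38), Gys1 at −0.34 (SE 0.18), Ldhb at −0.52 (SE 0.31) and Slc2a4 at −0.21 (SE 0.13) came next.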

How the data were processed

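Polyadenylated RNA of 15 samples (1 mouse each) was sequenced from both ends. Per the labels, reads were trimmed with Trim Galore 0.6.10 and quantified with Salmon 1.10.3 on GRCm39, and the authors deposited TPM summarized per gene. The annotation release is not given in the sources used here. TPM scale every library to 1000000, so a gene that takes much of a library lowers the others. Counts and depth are unknown, and no interval for depth was given.

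Of 56980 identifiers, 56236 were found in GENCODE M39, which gave symbols. A gene that reached 0.5 TPM in 3 or more mice was fitted as log2(TPM + 0.5) with limma 3.58.1 (trend) in R 4.3.3. TA was fitted with 1 surrogate variable and heart with labelled sex. Tissue contrasts and the test of treatment by tissue came from 1 fit of the 4 groups without a covariate. A call needed an adjusted p under 0.05 (Benjamini-Hochberg over all genes) and a log2 fold change beyond 0.5. On the log2(TPM + 0.5) scale the fold of low genes is understated. Isozyme shares were compared with two-sided exact permutation tests, adjusted over 10 shares. The limma steps were tested on simulated data.

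The members, lists and tests were chosen with earlier results of these data known. All members are described; fold changes are printed for called members or the 6 with the smallest p, and values of every mouse for the 4 families with the largest share differences and the 3 members with the smallest treatment p. A few further heart fold changes, near 0 or at the ends of the range, were chosen after their values were seen. Of the other lists, at most 5 genes are named per comparison. Same-numbered mice are different animals, and their deviations correlated between −0.296 and 0.0366 in TA and −0.0364 and 0.031 in heart, so numbers did not pair them. Marker lists covered fast and slow fibres, cardiomyocytes, atrium, leukocytes, fibroblasts, adipocytes, red cells, endothelium, satellite cells and sex. Alternatives tried were other pseudocounts, filters, scalings and covariates, the replicate block, and leaving out each mouse.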

Additional observations from a re-analysis of the deposited data

Results flagged for a closer look

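In groups of 4 mice, each member's highest and lowest values were compared with the rest of the group by Dixon's ratio. Of 105 groups, 6 had such a value, and chance alone gives about 1 in 20. TA vehicle replicate 4 held 4 of the 6, all low: Aldoa at 6265 TPM beside 9542 to 10410 in the other vehicle TA, Pgam2 at 1074 TPM beside 1505 to 1577, Pgk1 at 190.8 TPM beside 291.8 to 316.6 and Gpi1 at 423.7 TPM beside 458.4 to 465.5. The fast-fibre genes of that mouse summed to 32570 TPM, the lowest of the vehicle TA. Leaving that mouse out moved the count of members called between vehicle TA and heart from 31 to 33. The calls over all genes moved from 4038 higher and 2518 lower to 4533 higher and 2288 lower. Dixon's ratio was not computed over all genes. Pgam1 was low in TA D+Q replicate 3, at 14.1 TPM beside 23.7 to 25.3 in the others. Gys1 was high in heart vehicle replicate 3, at 26.1 TPM beside 21.6 to 21.9.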

How the results depend on the processing

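The 118 results gave 2021 values under alternatives. Of these, 1884 stayed the same, 99 no longer passed the threshold, 4 newly passed it, 33 moved and 1 reversed. For a fold change or a share, the same means an unchanged direction and side of the threshold. Counts moved when they changed beyond a set ratio or to or from 0. Medians moved when they changed by more than the spread between mice. The reversal was Phkb in TA, which ran from −0.0205 (without TA D+Q replicate 3) to 0.348 when single mice were left out. Members called stayed at 0 in TA and in the test of treatment by tissue under every alternative, and ranged from 31 to 33 (vehicle mice) and 28 to 33 (D+Q mice) between tissues. In heart the count ranged from 0 to 1 when single mice were left out. At an unadjusted p under 0.05, up to 4 members were higher in TA (without TA D+Q replicate 1, 0.97% of all genes). The same count in heart ran from 7 (atrial genes as covariate, 5.11% of all genes) to 20 (TPM over nuclear genes, 14% of all genes). With the replicate block, 0 isozyme shares passed between tissues in vehicle mice and 0 in D+Q mice, since sign flips of 4 or 3 pairs cannot reach the threshold. Without any single mouse, 9 to 10 shares passed in vehicle mice, but 0 of the shares passed in D+Q mice, since so few mice allow no smaller p. The replicate block left 12 members higher in heart at an unadjusted p under 0.05 (5.81% of all genes). It left 31 (vehicle mice) and 29 (D+Q mice) members called between tissues. Over all genes it left 3987 higher and 2489 lower in vehicle mice, and 3843 higher and 2718 lower in D+Q mice. Over all genes in heart, 51 calls became 0 without a filter on low TPM, 13 without the trend, 25 with sex read from expression, 4 with the replicate block, 0 with the atrial covariate, and 0 to 136 when single mice were left out. The 11 genes called for treatment by tissue became 7 with a pseudocount of 1, 5 without a filter, 5 with the replicate block and 5 to 14 when single mice were left out, and in TA up to 2 genes were called without a single mouse. The unknown depth limits what low genes such as Aldoc, or Slc16a3 in heart, can show.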

Other observations

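Genes that feed or regulate the pathway gave further values. Of 22 regulators of glycolysis, 12 were higher and 2 lower in vehicle TA than in vehicle heart, where 22.6% of all genes were higher and 14.1% lower. Eya1, a transcriptional coactivator of fast-fibre genes, had a log2 fold change of 3.55 (SE 0.18), and Mef2c, a muscle transcription factor, 3.31 (SE 0.13). Mlxipl (ChREBP) and Mlxip (MondoA), which respond to glucose 6-phosphate, had 1.68 (SE 0.15) and 1.15 (SE 0.10). Of 13 genes of pyruvate entry into mitochondria, 2 were higher and 2 lower in TA, shares near those of all genes. The phosphatases that switch pyruvate dehydrogenase on ran in opposite directions, with 0.86 (SE 0.15) for Pdp1 and −2.21 (SE 0.22) for Pdp2, and the kinase Pdk1, which switches it off, had −1.01 (SE 0.14). In D+Q mice 13 regulators were higher and 3 lower, and 1 pyruvate entry gene was higher and 3 lower, where 21.4% of all genes were higher and 15.9% lower.

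In heart, Epas1, which encodes the hypoxia factor HIF-2 alpha, was the one gene of these lists called with D+Q. It rose from 53.2 TPM ± 5.2 (SD, n = 4) to 81.7 ± 1.0 (SD, n = 3), a log2 fold change of 0.63 (SE 0.078, limma, adjusted p = 0.0355). The call was lost in 11 of 19 alternatives, with limma adjusted p from 0.0558 (median-of-ratios scaling) to 0.838 (atrial genes as covariate): also without a filter, without the trend, with the replicate block, and without any one of the hearts except vehicle replicate 3. The log2 fold change ran from 0.42 to 0.72. Among the 22 regulators in heart, 5 were higher and 1 lower at an unadjusted p under 0.05 (9.65% and 7.99% of all genes). Ppargc1a, which was not called, was at 34.8 TPM ± 7.0 (SD, n = 4) with vehicle and 65.6 ± 10.9 (SD, n = 3) with D+Q. The study, in its own test on read counts, names Ppargc1a as significantly higher in D+Q hearts. Of the 13 pyruvate entry genes, 7 were higher at an unadjusted p under 0.05 (9.65% of all genes) and none was called. Pdha1, a subunit of pyruvate dehydrogenase, had 0.27 (SE 0.049, limma, adjusted p = 0.0922). In TA no gene of the 4 lists was called, and in heart 5 of 17 further glycolysis and lactate genes were higher and 2 lower at an unadjusted p under 0.05, and 3 of 18 further glycogen genes were higher.

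Among the marker lists in heart with D+Q, 3 of 5 fibroblast, 2 of 4 tested adipocyte, 1 of 6 leukocyte and 5 of 5 red-cell genes were lower at an unadjusted p under 0.05, and 1 of 4 endothelial, 1 of 3 tested slow-fibre and 1 of 4 tested fast-fibre genes were higher, where 7.99% of all genes were lower and 9.65% higher. Fibroblast genes summed to 537 to 752 TPM with vehicle and 429 to 502 TPM with D+Q, and slow-fibre genes to 1076 to 1427 and 1536 to 1883 TPM. Of 5 atrial genes, 3 were called lower. In TA, 1 gene each of the fast-fibre, fibroblast, adipocyte and endothelial lists was lower at an unadjusted p under 0.05 and none was called. The satellite-cell genes summed to 1.97 to 2.75 TPM in vehicle TA and were listed at 0 in vehicle hearts.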
